A study of Cairina moschata with 9 samples.

Results

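In the Muscovy duck (Cairina moschata), abdominal fat of birds of 66 weeks was compared with that of birds of 12 weeks, the oldest and the youngest of an RNA sequencing series. The comparison uses 6 of the 9 libraries, 3 from birds of 66 weeks and 3 from birds of 12 weeks. The remaining 3, from birds of 35 weeks, enter through the shared estimate of the spread and as values set beside the others. All birds were of normal body weight and were killed for sampling, and 1 library is read as 1 bird. No treatment or allele is named for any group, and the labels give no sex or strain. The labels put the 66-week libraries in lane 5 and the 12-week libraries in lane 3, and the lane cannot be told apart from the age.

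Abdominal fat is a white adipose depot, in which adipocytes store triglyceride taken up from the blood and release fatty acids when energy is needed. Birds make most of their fatty acids in the liver, and the depot fills from lipoproteins that the liver secretes. The tissue also holds blood vessels, stromal cells and immune cells, and the make-up of the whole can differ with age. In such bulk RNA, fewer cells of a type and less RNA per cell cannot be told apart.

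Levels are in FPKM (fragments scaled by gene model length and library size), with 1 deposited value for each of 14814 genes and each library. The genes carry Ensembl-type identifiers that begin with ENSAPLG. The species of these gene models is not stated, and they are not taken to be those of the Muscovy duck. The files do not pair the identifiers with gene names. The tissue label could therefore not be checked against adipocyte genes or genes of other cell types, and no role is given here for any gene. Identifiers are printed for 4 genes, 2 in each direction, and other genes are given by their values. The 11381 genes whose values averaged 1 FPKM or more in these 6 libraries were compared. The gene just inside that limit had a mean of 1.00 FPKM and the gene just outside one of 0.997 FPKM.

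The 66-week libraries were alike, and 12-week replicate 3 lay closer to the 35-week libraries than to its own age. Pearson's r of log2(FPKM + 1), taken over the genes compared (genes are no independent replicates), lay between 0.885 and 0.903 for the 3 pairs of 66-week libraries. It lay between 0.831 and 0.905 for the 3 pairs of 12-week libraries, and between 0.820 and 0.878 for the 9 pairs that join the ages. For 12-week replicate 3, r was 0.850 and 0.831 with the other 12-week libraries, and 0.867, 0.899 and 0.909 with the 35-week libraries. Relative depth, estimated from what 1 fragment is worth in FPKM, was 0.893, 1.287 and 0.996 in the 66-week libraries and 1.051, 0.931 and 0.985 in the 12-week libraries, with 1 as the mean of the 9. Any scaling of the libraries to each other, which is not stated, would enter these estimates. The reads behind each gene are not given, so no counting interval can be set on a level.

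Few genes passed the adjusted threshold between 66 and 12 weeks, and on the deposited scale more of them were higher than lower at 66 weeks. Of the 11381 genes, 32 (0.281%) were higher and 10 (0.0879%) lower at 66 weeks at an adjusted p below 0.05 (limma on log2(FPKM + 1), 3 ages in 1 fit, Benjamini-Hochberg over all genes tested). These are the genes called below. The 32 had mean levels of 3.28 to 2434 FPKM over the 6 libraries, with a median of 170 FPKM. The 10 were at 4.04 to 51.0 FPKM, with a median of 10.8 FPKM. The median log2 fold change, 66 over 12 weeks, was 1.25 in the genes called higher and -2.40 in the genes called lower, beside 0.03 over all genes tested. Before adjustment, limma put 1173 genes higher and 761 lower at a p under 0.05, so a gene not called is not shown to be alike at both ages. The counts depend on the libraries fitted: a fit of only the 6 libraries called 5 higher and 2 lower, of which 1 and 2 were among the 32 and 10. Without 35-week replicate 1 the counts were 1 and 0 (limma; 1107 and 665 genes before adjustment), and leaving out any other library gave 3 to 13 higher and 0 to 3 lower, with 11 and 3 in the fit without 12-week replicate 3. The split between directions depends on the scale: 76.2% of the calls were higher on the deposited scale, 57.1% with the level-centring described below, 55.6% with quantile normalization and 1.84% with each library divided by its own sum.

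A count without a model gave a direction that depended on the scale. On the deposited scale, all 3 values at 66 weeks lay above the 3 at 12 weeks in 1524 genes (13.4%), and all 3 lay below in 1100 (9.67%). The order turned on 4 other scales, with 1303 above and 1403 below after median-ratio scaling, 1268 and 1494 after cyclic loess, 1225 and 1482 after quantile normalization, and 182 and 5538 with each library divided by its own sum. On the deposited scale, a log2 fold change over 1 was seen in 326 of the genes that lay above, at a median level of 40.1 FPKM, and one of under -1 in 231 of the genes that lay below, at a median level of 6.96 FPKM. For 3 against 3, the smallest p of an exact permutation test (two-sided) is 0.1. A gene without a difference between the ages would separate, in either direction, with that probability. Separation alone therefore does not show that a gene differed.

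**Figure D1:**
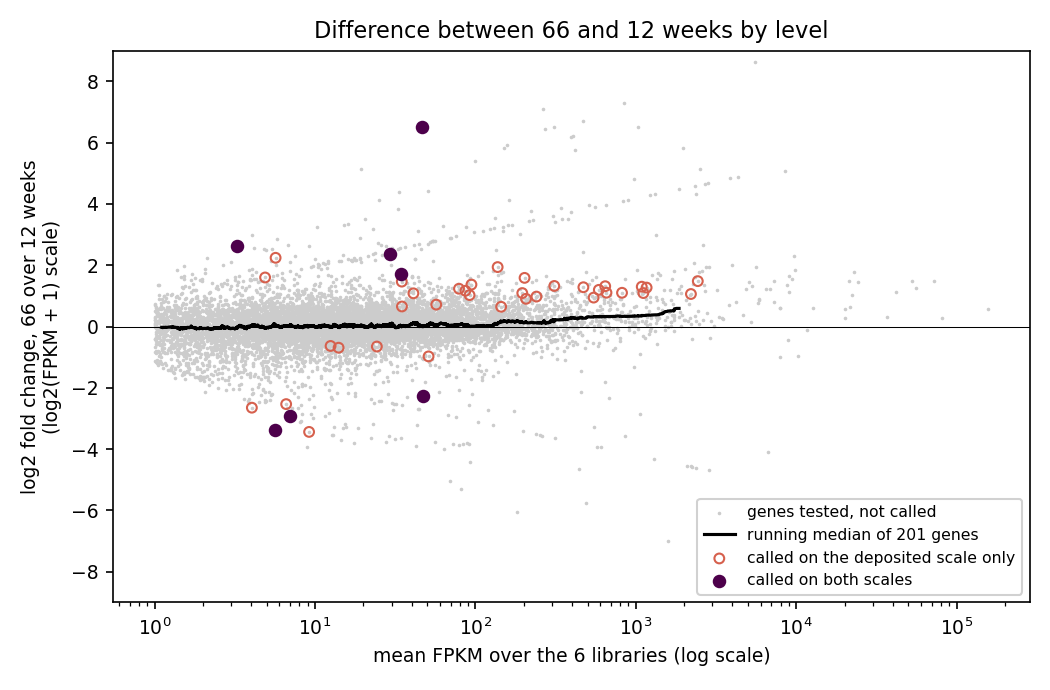
Each point is 1 of the 11381 genes compared, with its mean FPKM over the 6 libraries on a log axis (horizontal) and its log2 fold change of 66 over 12 weeks (vertical); 3 genes lie outside the vertical range. The black line, the running median over neighbouring genes, stays near 0 up to about 100 FPKM and rises above it at higher levels; open circles are genes called on the deposited scale only and filled circles the 7 called on both scales.

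Genes at very high FPKM lay jointly higher at 66 weeks on the deposited scale. Genes were put in 4 classes by their mean over the 6 libraries. In the 183 genes of 1000 FPKM or more, the median level was 2314, 2184 and 2297 FPKM in the 66-week libraries, against 1312, 1409 and 1373 FPKM in the 12-week libraries. All 3 libraries of 66 weeks lay above all 3 of 12 weeks, and the class median averaged 2265 ± 70.9 FPKM for the 66-week birds and 1364 ± 49.4 FPKM for the 12-week birds (SD, n = 3 each). In the 1037 genes of 100 to 1000 FPKM it averaged 187 ± 11.9 FPKM for the 66-week birds and 162 ± 5.52 FPKM for the 12-week birds (SD, n = 3 each), again without overlap. In the 6338 genes of 10 to 100 FPKM it was 25.3 ± 0.599 and 24.6 ± 0.284 FPKM at 66 and 12 weeks, and in the 3823 genes of 1 to 10 FPKM 4.02 ± 0.304 and 4.13 ± 0.385 FPKM (SD, n = 3 each). In these lower classes the libraries of the ages overlapped.

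Gene by gene, the shift grew with the level up to the genes of 3000 to 10000 FPKM. The median log2 fold change, 66 over 12 weeks, was -0.01 in the genes of 1 to 10 FPKM, 0.03 at 10 to 100 FPKM, 0.14 at 100 to 1000 FPKM and 0.68 at 1000 FPKM or more. In finer classes it was 0.10 at 100 to 300 FPKM, 0.31 at 300 to 1000 FPKM, 0.47 at 1000 to 3000 FPKM, 1.16 in the 36 genes of 3000 to 10000 FPKM and 0.83 in the 18 genes of 10000 FPKM or more. Without 12-week replicate 3 the median at 1000 FPKM or more was 0.68 as well. A positive fold change was seen in 84.7% of the genes of 1000 FPKM or more, against 53.5% of all genes tested. All 3 values of 66 weeks lay above the 3 of 12 weeks in 89 of these 183 genes (48.6%) and below in 3 (1.64%). At 1 to 10 FPKM the shares were 10.2% above and 10.2% below.

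**Figure D2:**
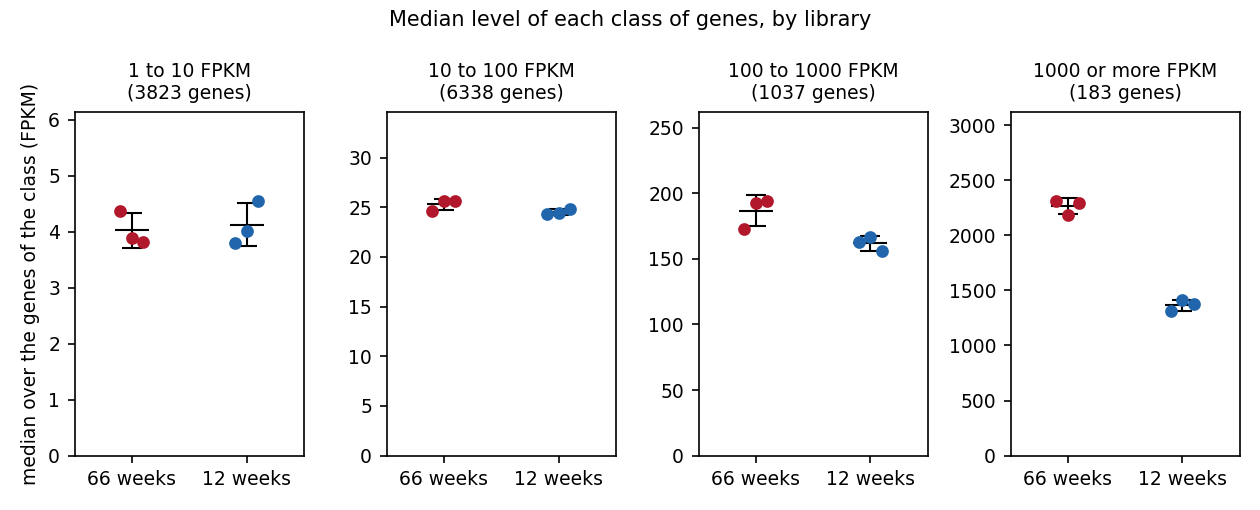
Each panel shows 1 class of genes by mean level, with the median FPKM over the genes of the class (vertical axis from 0) for each 66-week library (red, left) and each 12-week library (blue, right); the bars are the mean and SD of 3 libraries. The ages overlap in the classes under 100 FPKM and stand apart at 1000 FPKM or more, at 2184 to 2314 FPKM in the 66-week libraries and 1312 to 1409 FPKM in the 12-week libraries.

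The shift was shared by most genes of the highest class, and single genes varied around it. Of the 183 genes, 155 were above 0 in all 6 libraries. Their median log2 fold change was 0.62, 137 were positive and 18 negative, and 79 lay within 0.5 of the median. The SD over these genes was 0.76. Seen by library, the median deviation of these genes from their own mean over the 6 libraries was 0.34, 0.25 and 0.36 (log2) at 66 weeks and -0.29, -0.29 and -0.28 at 12 weeks. It was -0.05, -0.08 and 0.10 in the 35-week libraries, which lay between the other ages.

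Among the 5 genes of highest mean, the ages overlapped in 3, and none was called (limma, adjusted p 0.149 to 0.759; 2 had an unadjusted p under 0.05). The gene of highest mean had 208459, 118072 and 223296 FPKM in the 66-week libraries, against 125911, 200791 and 65236 FPKM in the 12-week libraries. The ages overlapped, and its log2 fold change of 0.58 ± 0.54 (SE) was within the spread (limma, adjusted p 0.592). The gene of fifth-highest mean had 67715, 74301 and 85939 FPKM at 66 weeks, against 16239, 38173 and 32000 FPKM at 12 weeks. Its groups did not overlap, and its log2 fold change of 1.48 ± 0.41 (SE) missed the threshold (limma, adjusted p 0.149).

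A further pair, singled out after their values were seen, mark the ends of the class among genes without overlap and above 0 in all 6 libraries. The largest positive difference was 1977, 3423 and 1643 FPKM at 66 weeks, against 153, 457 and 320 FPKM at 12 weeks, with 569, 235 and 164 FPKM at 35 weeks. The log2 fold change was 2.98 ± 0.56 (SE; limma, adjusted p 0.0794). The largest difference in the other direction was 191, 114 and 184 FPKM at 66 weeks, against 192, 2559 and 3093 FPKM at 12 weeks (limma, adjusted p 0.386). In that gene 12-week replicate 1 stood beside the 66-week birds.

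The genes of the highest class also weighed on the total. Summed over all genes of the table, the values came to 1884657, 1887375 and 2145328 FPKM in the 66-week libraries, against 1255226, 1467610 and 1214260 FPKM in the 12-week libraries, a ratio of the means of 1.5. The libraries did not overlap, and the exact permutation test (two-sided) gave 0.1, its smallest p for 3 against 3. Genes of 1000 FPKM or more made up 73.0 ± 1.20% of the sum at 66 weeks and 63.7 ± 3.38% at 12 weeks (SD, n = 3 each). Without the 20 genes of highest mean, the sum was 1051815, 1018379 and 1101315 FPKM at 66 weeks and 753749, 799393 and 825428 FPKM at 12 weeks, a ratio of 1.33.

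The direction given to a class depends on this total. With each library divided by its own sum (the TPM scale), the median log2 fold change of all genes tested moved to -0.48. On that scale the median was 0.09 at 1000 FPKM or more, while the classes below lay between -0.42 and -0.52. The step between the highest class and the genes of 10 to 100 FPKM was thus 0.64 on the deposited scale and 0.61 on the TPM scale. Dividing by the sum moves all genes of a library alike before 1 is added, so a step of similar size was fixed in advance. Quantile normalization, which gives every library the same distribution, takes off a joint shift by construction. It left -0.05 at 1000 FPKM or more and -0.07 at 100 to 1000 FPKM, so the sign of both classes turned there.

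The FPKM value of 1 fragment differed between the same libraries, to an extent that changed with the gene model. In a table made from whole fragments, the low values of a gene are whole multiples of the value of 1 fragment, which is larger for a shorter gene model. That value was estimated from genes with low values, in 9 classes by its size, relative to the genes of the class at 0.06 to 0.12 FPKM and to the mean of the 9 libraries. For 1 fragment worth 1 to 3 FPKM it was shifted by 0.168 ± 0.019 at 66 weeks and -0.133 ± 0.037 at 12 weeks (log2; SD of 3 libraries) over 94 genes. At 10 to 50 FPKM the shifts were 0.369 ± 0.104 and -0.276 ± 0.072, from 51 genes, a difference of 0.645. At 50 to 250 FPKM they were 0.506 ± 0.267 at 66 weeks and -0.373 ± 0.126 at 12 weeks, from 29 genes, a difference of 0.879. The libraries of the ages did not overlap in any of these 3 classes. At 66 weeks, replicate 2 was the lowest in the 2 classes of shortest models, at 0.258 and 0.214. In the genes of 1000 FPKM or more, the deviation at 66 weeks was lowest in replicate 2 as well, at 0.25. It was largest in replicate 3, and the shift of the shortest models was largest in replicate 1. The 35-week libraries lay between the other ages in both, at -0.119, -0.162 and -0.119 in the shortest models. At 12 weeks replicate 2 stood apart in the shift of the shortest models, at -0.227 against -0.44 and -0.451, while the deviations of the 12-week libraries were alike. The labels and the table give no lengths of gene models, so it is not known on which models the highest genes lie. The part of the value of 1 fragment in the joint shift was not tested.

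**Figure D3:**
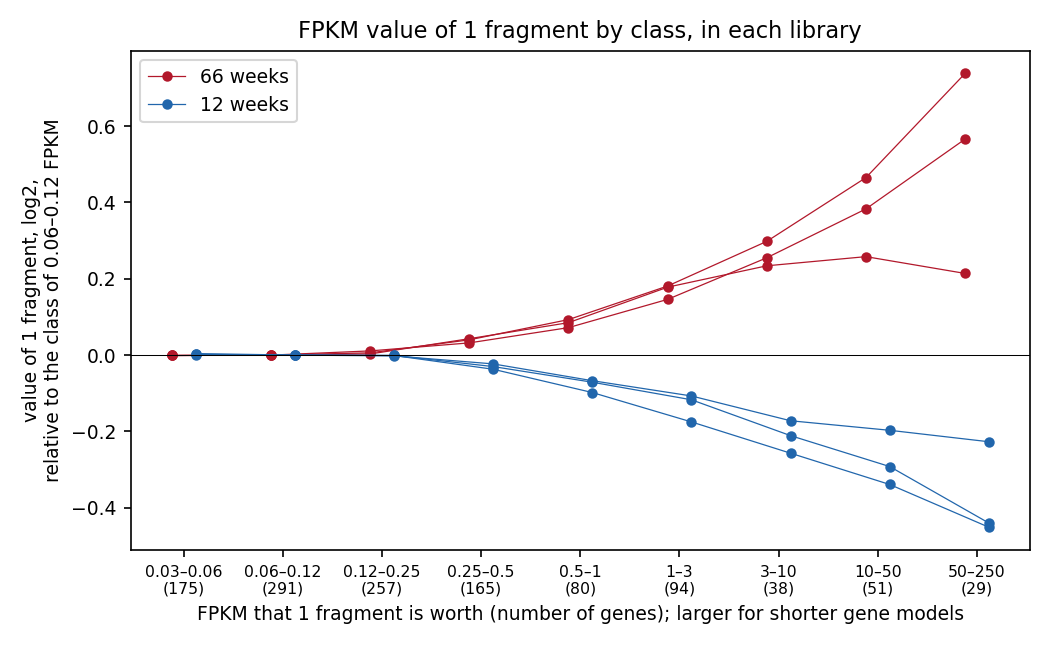
The horizontal axis gives classes of genes by the FPKM that 1 fragment is worth, with the number of genes in brackets, and the vertical axis the log2 value of 1 fragment relative to the class of 0.06 to 0.12 FPKM, for each 66-week (red) and 12-week (blue) library. The ages lie together up to 0.25 FPKM and move apart from there, to 0.214 to 0.738 in the 66-week libraries and -0.451 to -0.227 in the 12-week libraries at 50 to 250 FPKM.

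Single genes were separated from the joint shift by taking off, in each library, the running median of the deviations of the genes nearest in level. Level was here the mean of log2(FPKM + 1) over the 6 libraries, not the mean FPKM that set the classes. On these level-centred values 4 genes (0.0351%) were higher and 3 (0.0264%) lower at 66 weeks (limma, adjusted p below 0.05), and all 7 were among the 42 called on the deposited scale. The share of genes whose values at 66 weeks all lay above those at 12 weeks was then 11.9%, and the share all below 11.8%; the centring itself brings these shares together. In the genes of 1000 FPKM or more, 27.3% still lay above and 14.2% below, at a median of 0.25 for the log2 fold change. The highest genes of all share the last window of the running median, so the shift was taken off only in part there. Genes of the class listed at 0 in some library have a lower mean of log2 values. They were centred among genes of lower level. After level-centring the median log2 fold change was 0.01 at 1000 to 3000 FPKM, 0.69 at 3000 to 10000 FPKM and 0.36 at 10000 FPKM or more. The centring goes by level alone. A shift that follows the gene model, such as that in the value of 1 fragment, can therefore remain in a gene. The part of such a shift in the single genes was not tested.

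The called genes differed in how much of their fold change went with their level. In the 5 genes called higher at 1000 FPKM or more, log2 fold changes of 1.06 to 1.48 became 0.59 to 1.01 after level-centring (limma, adjusted p 0.0761 to 0.143). In the 14 called higher under 100 FPKM the median was 1.42 before and 1.40 after. In the 10 called lower the medians were -2.40 and -2.40. Of the genes called higher and not called again, 28, adjusted p after level-centring lay between 0.0510 and 0.143 (limma). For the 7 genes called lower that were not called again it lay between 0.0510 and 0.0761 (limma).

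**Figure D4:**
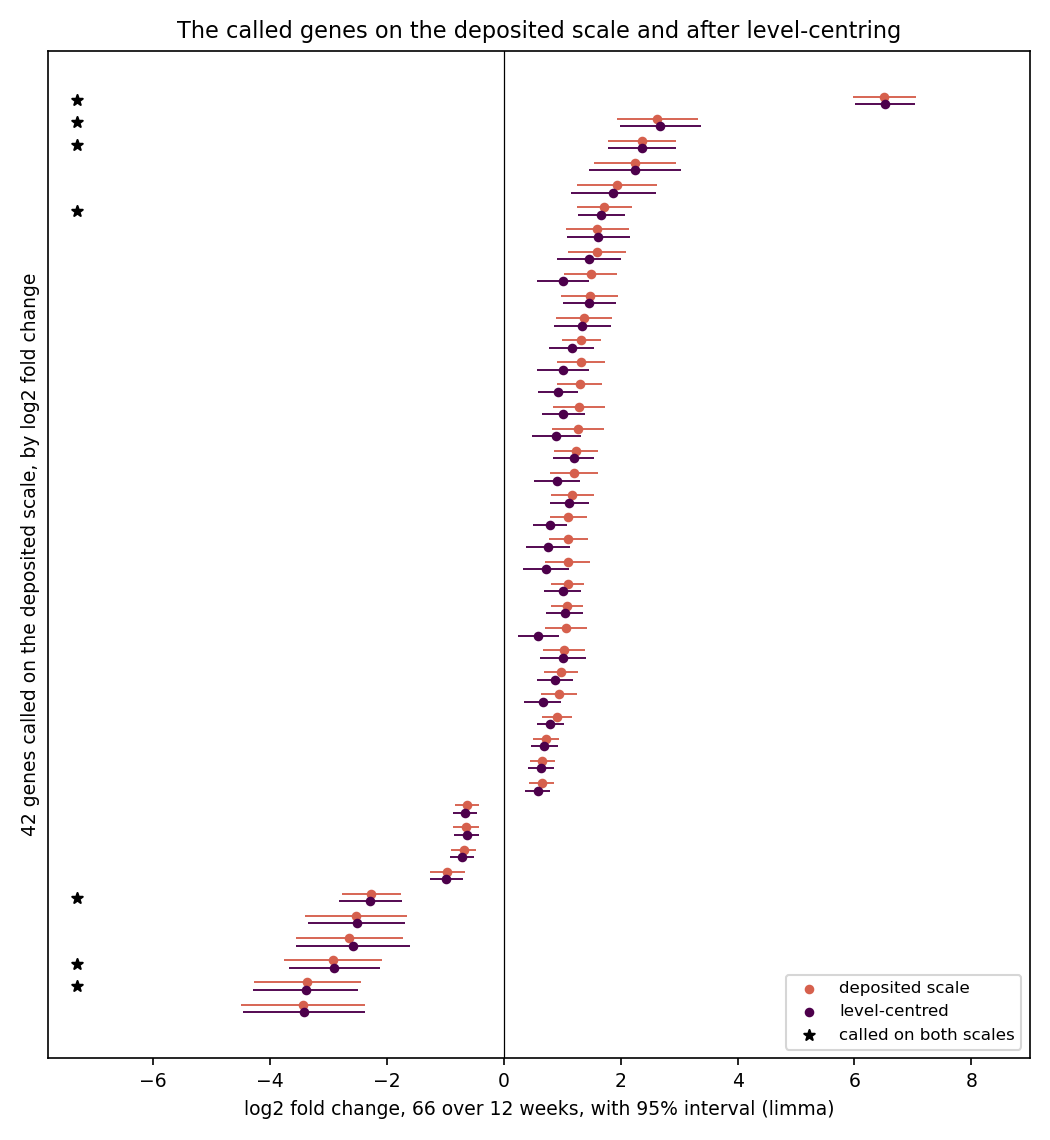
Each row is 1 of the 42 called genes, ordered by log2 fold change of 66 over 12 weeks (horizontal axis), with the limma estimate and its 95% interval on the deposited scale (orange) and after level-centring (purple); stars mark the 7 called on both. The estimates coincide in the genes of low level and move toward 0 after level-centring in genes of high level.

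The same 7 genes passed under all 5 ways of rescaling that were tried, which were level-centring, cyclic loess, quantile normalization, median-ratio scaling and the TPM scale. Their pass under level-centring was fixed, since it chose them, and the other 4 rescale the same libraries. Of the 32 genes called higher, 4 passed under all 5, 10 under 1 and 6 under none. Of the 10 called lower, 3 passed under all 5 and 1 under 1 only. Because the 7 were chosen by their calls in these libraries, their values below are a description.

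ENSAPLG00000001369 led the genes called higher in the fit of the 3 ages. It was at 119, 62.2 and 99.8 FPKM in the 66-week libraries and listed at 0 in every 12-week and every 35-week library (limma, adjusted p 3.42e-05). It passed in all 25 alternatives that tested it, at an adjusted p of 0.00475 or less (limma). The filter for genes above 0 in each of the 6 libraries left it out. The 6 values of 0 bring no spread into the test, and the gene reached the level limit through the 66-week birds alone. These passes were therefore largely fixed in advance. Among the 3 birds of 66 weeks, log2 ratios of its values were 0.932, 0.25 and 0.682, beside 1.05, 0.329 and 0.722 for the value of 1 fragment on the shortest gene models. On those models 1 fragment is worth 50 to 250 FPKM, a range that holds all 3 values of this gene. The gene itself met the rule for this class, so it was 1 of the 29 genes that set the value of 1 fragment there. The likeness of the ratios and the shared range are therefore partly fixed in advance. On such a model the values of the gene could stand for as little as 1 fragment in each library. The length of its model and the number of fragments behind its values are not given.

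ENSAPLG00000000751 was already high at 35 weeks. It had 4.97, 6.0 and 8.09 FPKM at 66 weeks, against 0.622 FPKM in 12-week replicate 2, and it was listed at 0 in 12-week replicates 1 and 3. The 35-week values were 4.73, 9.0 and 6.42 FPKM, in the range of the 66-week birds. Its log2 fold change of 66 over 12 weeks was 2.62 ± 0.30 (SE; limma, adjusted p 0.0362).

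In the other pair of genes that rose on both scales, the 35-week birds overlapped with those of 12 weeks, a comparison that was not tested. The gene of rank 3 had 44.5, 64.6 and 39.4 FPKM at 66 weeks, against 11.2, 9.38 and 5.94 FPKM at 12 weeks, and 9.36, 7.78 and 7.21 FPKM at 35 weeks. Its log2 fold change was 2.37 ± 0.25 (SE; limma, adjusted p 0.0362). The gene of rank 4 had 45.0, 55.7 and 59.3 FPKM at 66 weeks, against 18.0, 12.0 and 16.9 FPKM at 12 weeks, and 19.7, 15.0 and 22.7 FPKM at 35 weeks. Its log2 fold change of 66 over 12 weeks was 1.72 ± 0.20 (SE; limma, adjusted p 0.0375). In both, the lowest bird of 66 weeks stood at more than the highest of the other ages.

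ENSAPLG00000007447 was near 0 at 66 weeks. It had 0.156, 0.181 and 0.140 FPKM at 66 weeks, against 7.85, 12.1 and 13.6 FPKM at 12 weeks, and 17, 33.3 and 9.56 FPKM at 35 weeks. The mean at 12 weeks was 70.3 times that at 66 weeks. With 1 added to each FPKM value, by which the change of a low gene is understated, the log2 fold change was -3.36 ± 0.40 (SE; limma, adjusted p 0.0375). It was called in the fit of only the 6 libraries (limma, adjusted p 0.0254) and not with the replicate number as a block (limma, adjusted p 0.095).

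ENSAPLG00000011980 was low at both later ages. It had 2.31, 0.257 and 0.483 FPKM at 66 weeks, against 11.7, 13.6 and 13.3 FPKM at 12 weeks, and 0.815, 1.77 and 1.49 FPKM at 35 weeks. The 12-week birds were close to each other, and all lay above the other 6 libraries. Its log2 fold change of 66 over 12 weeks was -2.92 ± 0.36 (SE; limma, adjusted p 0.0377).

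The third gene that fell on both scales had a higher level. It was at 15.7, 18.3 and 12.3 FPKM at 66 weeks, against 76.5, 99.9 and 60.2 FPKM at 12 weeks, and at 62.2, 71.5 and 84.4 FPKM at 35 weeks. The birds of 12 and 35 weeks overlapped, and those of 66 weeks lay apart from both. Its log2 fold change of 66 over 12 weeks was -2.27 ± 0.22 (SE; limma, adjusted p 0.0362), and the mean at 12 weeks was 5.12 times that at 66 weeks.

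**Figure D5:**
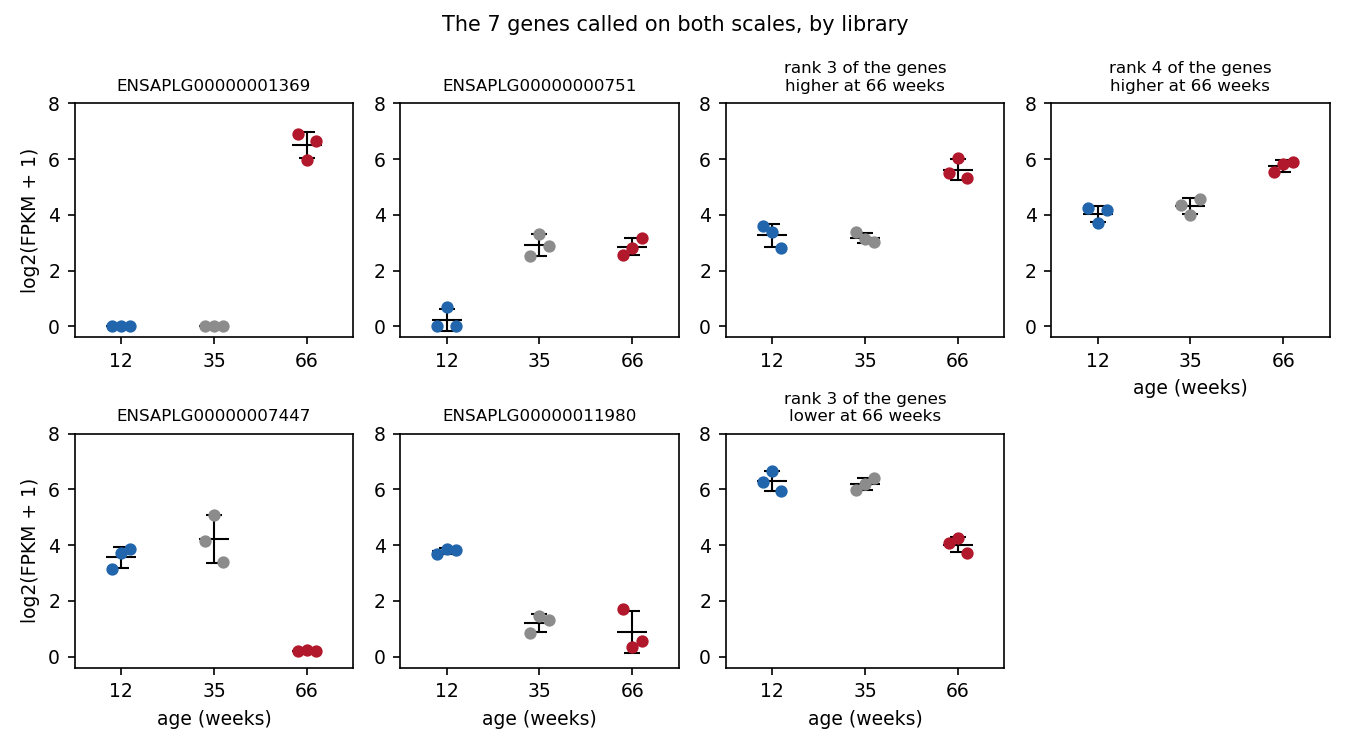
Each panel is 1 of the 7 genes called on both scales, with log2(FPKM + 1) in each library (vertical axis) against age in weeks (horizontal axis); points are libraries and bars the mean and SD of 3. The 66-week birds stand apart from both other ages in 5 panels, while in ENSAPLG00000000751 and ENSAPLG00000011980 the 35-week birds lie with those of 66 weeks.

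Apart from ENSAPLG00000001369, each of these genes lost its call when most of the single libraries were left out. In fits without 1 of the 9 libraries, ENSAPLG00000000751 passed only without 12-week replicate 2, and ENSAPLG00000011980 only without 66-week replicate 1 (limma, adjusted p up to 0.0977 and 0.105). ENSAPLG00000007447 passed without 35-week replicate 2 or 3 and in no other of these fits (limma, up to 0.109). The gene of rank 3 that rose passed without 12-week replicate 3 or 35-week replicate 3, and that of rank 4 only without 35-week replicate 3 (limma, up to 0.0813 and 0.104). The third gene that fell on both scales passed in 4 of the 9, those without 66-week replicate 2, 12-week replicate 2 or 3, or 35-week replicate 3 (limma, up to 0.0721). In the fit of only the 6 libraries, ENSAPLG00000001369 and ENSAPLG00000007447 were called, and the other 5 of the 7 genes were not (limma, adjusted p 0.0765 to 0.127).

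Among the genes called on the deposited scale only, those of high level had fold changes of similar size. The 12 called higher at 300 FPKM or more had log2 fold changes of 0.95 to 1.48. The highest had 4175, 2840 and 3756 FPKM at 66 weeks, against 1069, 1301 and 1463 FPKM at 12 weeks, with 1932, 1763 and 1963 FPKM at 35 weeks. The log2 fold change of 66 over 12 weeks was 1.48 ± 0.20 (SE; limma, adjusted p 0.0377). Its 3 ages did not overlap in any pair. After level-centring its log2 fold change was 1.01 (limma, adjusted p 0.105).

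A few called genes had small and tight differences. The smallest fall was to 9.90, 9.22 and 9.68 FPKM at 66 weeks, against 14.9, 16 and 15.3 FPKM at 12 weeks, with 20.1, 21.3 and 20.3 FPKM at 35 weeks. The log2 fold change was -0.63 ± 0.09 (SE; limma, adjusted p 0.0473). The smallest rise was to 172, 185 and 174 FPKM at 66 weeks, against 116, 114 and 108 FPKM at 12 weeks, with 119, 121 and 119 FPKM at 35 weeks. The log2 fold change was 0.65 ± 0.09 (SE; limma, adjusted p 0.0469). Birds of 1 age lay close together in both genes.

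The largest fall on the log2 scale among the called genes did not pass after level-centring. That gene had 2.40, 0.0730 and 0.185 FPKM at 66 weeks, against 11.8, 25.6 and 15.1 FPKM at 12 weeks, and 0.413, 0.381 and 0.464 FPKM at 35 weeks. Its adjusted p (limma) was 0.0377 on the deposited scale and 0.0518 after level-centring. A further gene that fell, with 1.18, 1.18 and 1.33 FPKM at 66 weeks against 14.4, 11.7 and 9.92 FPKM at 12 weeks, was called by the fit of only the 6 libraries as well (limma, adjusted p 0.0473 in 3 ages and 0.0254 in 2). Its 35-week birds, at 8.93, 12.2 and 29.8 FPKM, spanned the values of the 12-week birds.

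Genes listed at 0 at 1 age and present at the other were few and mostly of the 66-week birds. Of all 14814 genes, 11 were listed at 0 in the 3 libraries of 12 weeks and at 1 FPKM or more in the 3 of 66 weeks, and 1 showed the opposite. Their values at 66 weeks lay between 1.00 and 1004 FPKM. Of the 11, 9 were above 0 in at least 1 library of 35 weeks and 1, ENSAPLG00000001369, was called in the fit of the 3 ages. The fit of only the 6 libraries called 5 genes higher at 66 weeks, and only ENSAPLG00000001369 of these was among the 32. It did not lead there, at an adjusted p of 0.00076 (limma). Genes with larger log2 fold changes, not called in the fit of the 3 ages, had a lower adjusted p. How many of the 11 genes were called in the fit of only the 6 libraries was not counted. In such a table a 0 can be a failed estimate, so these genes are only said to be listed at 0. The number of genes listed at 0 was 1889, 1835 and 2039 in the 66-week libraries and 1825, 1915 and 1932 in the 12-week libraries, with overlap.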

How the data were processed

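Per the file headers, the deposited values are FPKM for each gene and library. The tools named are TopHat2 2.0.9, Cufflinks 2.1.1 and Cuffdiff, per the submitters' processing notes. The tool that made the values, the genome build, the annotation and any scaling of libraries to each other were not given in the sources used here. Values were taken as log2(FPKM + 1). Genes averaging 1 FPKM or more in the 6 libraries were fitted in 1 model of the 3 ages with limma 3.58.1 in R 4.3.3 (eBayes with trend, 6 residual and 2.03 prior degrees of freedom), two-sided, with Benjamini-Hochberg adjustment over the 11381 genes and a threshold of 0.05. Count models were not applied, since FPKM are no counts. The comparison, the level classes and the rules were chosen with earlier results of these data known.

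Printed identifiers are, in each direction, the 2 called genes without overlap of ages that ranked first by log2 fold change, those called on level-centred values before others. The gene and cell type lists of the plan need symbols and were not used. The value of 1 fragment was estimated from genes above 0 in 2 to 7 of the 9 libraries, as steps under which low values become whole multiples within 0.1. Within the classes between 74.0% and 91.3% of the low values did so, with steps fitted to these same genes. Both procedures were tested on simulated data. Birds are assumed from the series design. The limma p-values set the difference between the ages against the spread of libraries within an age, estimated over the 3 ages in the main fit. Python 3.11.15, numpy 2.4.6, pandas 2.3.3, scipy 1.17.1 and matplotlib 3.10.9 were used. Alternatives covered pseudocounts, filters, scaling, the fit and leaving out each library.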

Additional observations from a re-analysis of the deposited data

How the results depend on the processing

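Counts are genes called by limma (adjusted p below 0.05), higher and then lower at 66 weeks, beside 32 and 10. They became 5 and 2 with only the 6 libraries fitted, 5 and 4 with quantile normalization, 4 and 3 with level-centring, 8 and 6 with cyclic loess, 64 and 3409 on the TPM scale and 73 and 23 with library weights, from 0.281 for 12-week replicate 3 to 3.86 for 35-week replicate 2. Median-ratio scaling gave 20 higher, genes above 0 in all 6 libraries gave 16 lower, and level-centring with only the 6 libraries, chosen after seeing the data, gave 7 and 2. A fit with a replicate block called 1 and 0 (1177 and 820 before adjustment). The numbers are not taken as pairs: deviations of same-numbered libraries of 66 and 12 weeks correlated at 0.0289, -0.0484 and -0.0775, and not every library correlated best with its own number. Of all calls, 76.2% were higher on the deposited scale, 55.6% with quantile normalization, 57.1% with level-centring or cyclic loess and 1.84% on the TPM scale.

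Leaving out each library once gave from 1 (without 35-week replicate 1) to 13 (without 35-week replicate 3) and from 0 (without 66-week replicate 3 or 35-week replicate 1, with 580 and 665 lower before adjustment, by limma) to 3. The counts were 3 and 3, 5 and 1, and 4 and 0 without 66-week replicates 1, 2 and 3, and 3 and 1, 4 and 3, and 11 and 3 without 12-week replicates 1, 2 and 3.

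The median log2 fold change at 1000 FPKM or more, 0.68, became 0.62 in genes above 0 in all 6 libraries, -0.0502 with quantile normalization, 0.0869 on the TPM scale, 0.25 with level-centring and 0.11 with cyclic loess. Without 1 library it lay between 0.55 and 0.75. Its step above genes of 10 to 100 FPKM, 0.64, became 0.58, -0.0362, 0.25 and 0.11 with the same alternatives except the TPM scale (0.61), and 0.49 to 0.72 without 1 library. Cyclic loess and quantile normalization take off such a shift by construction, and level-centring does so only in part at the highest levels. The other causes were not tested. The shares of genes all above and all below became 1.60% and 48.7% on the TPM scale, 10.8% and 13% with quantile normalization, 11.1% and 13.1% with cyclic loess and 11.4% and 12.3% with median-ratio scaling. For the 7 genes called on both scales, 117 of 179 values passed the threshold and all kept their sign, which the lack of overlap largely fixes. Of these passes, 25 were of ENSAPLG00000001369 and largely fixed in advance, and those under level-centring chose the genes. In the 9 fits without 1 library, the other genes of the 7 passed in 1 to 4 each. Read depth per gene is not given.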
